A study of Mus musculus with 16 samples.

Results

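The clustered histone genes of the mouse are the genes whose symbols begin with Hist1h, Hist2h, Hist3h or Hist4h, after the 4 genomic clusters that hold them. All symbols of this form were taken from the deposited gene tables, which gave 68 members of 23337 genes: 6 of family H1, 18 of H2A, 19 of H2B, 12 of H3 and 13 of H4. They were followed in 16 poly(A) RNA-seq libraries of first molar germs, the embryonic tooth primordia, from wild-type (WT) mice of the outbred strain CD1. There were 8 libraries labelled upper and 8 labelled lower, 1 of each at every 0.5 days from embryonic day ED14.5 to ED18.0. By the labels, each library joined the germs of both sides from 1 male embryo, and both teeth of a stage were taken from the same embryo, so stage and embryo are the same factor and no stage was repeated within a tooth label. No gene was altered and no agent was given in any group. The comparisons ask whether the tooth labels differ, whether levels change with stage, and whether they change differently in the 2 labels.

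Histones H2A, H2B, H3 and H4 form the protein core on which DNA is wound, and H1 binds the linker DNA between cores. Most clustered histone genes are switched on in S phase, when new DNA has to be packaged. Their mRNAs typically end just after a short stem-loop in place of a poly(A) tail. The stem-loop is bound by the protein Slbp, and the U7 small nuclear ribonucleoprotein directs the cut that forms the end. Some of these genes also make longer, polyadenylated transcripts, which are known from cells that differentiate or leave the cycle. The libraries here were selected for poly(A) tails, so the values describe mRNA that passed this selection and are not a measure of total histone mRNA.

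Gene counts ran from 33146758 to 44565205 per library, and levels are given as CPM, in which each count is divided by its library's gene counts and put on the same scale for all libraries. Known jaw and sex genes went against the labels. Pou3f3, known from the maxillary arch, lay at 4.45 to 10.1 CPM in individuals 1, 3, 5 and 7 of either tooth label and 60.1 to 131.5 CPM in the others, and Nkx2-3 measured 19.2 to 56.2 CPM in the former and at most 0.112 CPM in the latter. Xist, which marks an inactive X chromosome, measured 431.8 and 542.3 CPM in the libraries labelled lower at ED14.5 and ED15.0 and at least 1499 CPM in the other 14, while 4 Y-linked genes had at most 2 counts in any library. The tooth names are therefore written as labels throughout. Pou3f3 and Nkx2-3 split the individuals and not the tooth labels, so the assignment of stage and embryo is also in doubt. Both are given as labelled, and whether they hold was not tested. By the file names, all libraries labelled upper were run on 1 flow cell and all labelled lower on another, so tooth label and flow cell cannot be told apart, and the lane changed between ED16.0 and ED16.5 in both. Markers of dental epithelium and dental mesenchyme were present in every library, with summed levels of 2414 to 5106 CPM and 653.9 to 1689 CPM over 6 genes each.

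The sequences at the 3′ ends carry the distinction between the tailed and untailed forms, and stem-loops are shown for the 7 members with the highest counts that hold one and for Hist1h3c, whose loop has another form and whose slope is described further on. A histone stem-loop was searched for as a hairpin of 16 bases, a stem of 6 paired bases (GGNNNT against ANNNCC) around a loop of 4 (TTTN), on the sense strand of the GENCODE M21 transcript models (GRCm38, the build mm10 of the deposited data). It was found in 44 of the 68 members, against 0.251% (55) of 21877 protein-coding genes, those 44 included. Of the 68 members, 67 are protein-coding in GENCODE. Hist3h2bb-ps, counted here under H2B, is a processed pseudogene and held no match. In the windows of 26 bases below, written 5′ to 3′, capitals mark the stem and loop.

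Hist3h2a (chr11:58955167-58955192, plus strand): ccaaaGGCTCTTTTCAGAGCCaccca
Hist1h1c (chr13:23739507-23739532, plus strand): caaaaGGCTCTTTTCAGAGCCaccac
Hist3h2ba (chr11:58949344-58949369, plus strand): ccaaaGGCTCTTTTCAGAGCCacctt
Hist4h4 (chr6:136803993-136804018, minus strand): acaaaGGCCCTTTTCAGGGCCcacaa
Hist1h4i (chr13:22040961-22040986, minus strand): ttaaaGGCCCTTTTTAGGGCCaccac
Hist2h3c1 (chr3:96247322-96247347, plus strand): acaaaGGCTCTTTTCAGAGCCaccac
Hist1h2ac (chr13:23683472-23683497, minus strand): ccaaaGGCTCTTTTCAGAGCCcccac
Hist1h3c (chr13:23745042-23745067, minus strand): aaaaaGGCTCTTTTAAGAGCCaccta

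The form of Hist3h2a, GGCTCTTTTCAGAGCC, was shared by 26 of the 44 members. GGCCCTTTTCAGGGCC was found in 7, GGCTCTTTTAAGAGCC in 6, GGTCCTTTTCAGGACC and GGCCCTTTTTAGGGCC in 2 each, and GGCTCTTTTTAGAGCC in 1. The loop of Hist1h4i therefore belonged to one of the rare forms. No match was found in the models of Hist2h2be and Hist1h2bc, both H2B genes with high counts.

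A poly(A) signal, AATAAA or ATTAAA, is the hexamer near which the common cleavage and polyadenylation machinery cuts. It stood in the last 40 bases of the GENCODE model in 17 members, whereas 76.1% of protein-coding genes had one. The windows below are from the members with the highest counts, with the hexamer in capitals.

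Hist3h2a (chr11:58956790-58956809, plus strand): tatgcccAATAAAataagag
Hist1h1c (chr13:23740335-23740354, plus strand): tgcttctAATAAAaagcgtt
Hist3h2ba (chr11:58949500-58949519, plus strand): tggtattAATAAAtttggtt
Hist2h2be (chr3:96223710-96223729, plus strand): tattattAATAAAgttaccg
Hist1h4i (chr13:22040644-22040663, minus strand): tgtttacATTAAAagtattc

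The 17 members with a signal held 82.5% of all counts of the family, and the 51 without one held 17.46%. Among the 44 members with a stem-loop, the 22 whose model ran on for more than 100 bases after it held 71.6% of the counts, and the 22 whose model ended within 100 bases held 3.94%. Per kb of exon, the median levels of these 2 classes lay close together, at 0.311 and 0.256 CPM, and a few members held most of the counts. Members with a poly(A) signal had a median of 0.446 CPM per kb of exon and those without one of 0.270. These are descriptions across genes, with no test. The annotation used for the deposited counts is not known from the labels, and the part that the length of the counted model has in these shares was not tested.

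**Figure D1:**
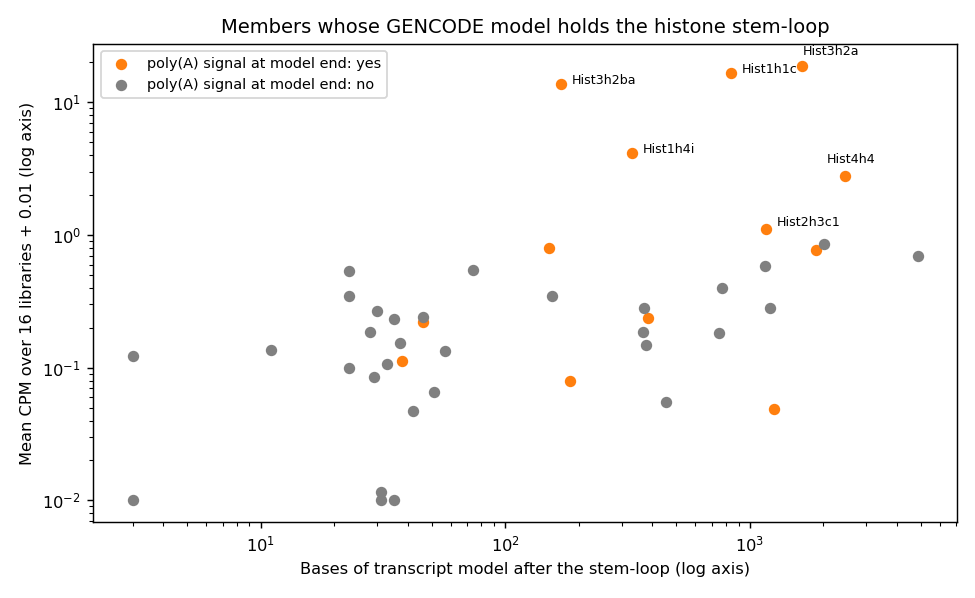
Mean CPM over the 16 libraries, with 0.01 added (vertical log axis), against the number of transcript bases after the stem-loop (horizontal log axis) for the 44 members whose GENCODE model holds a stem-loop. Orange points have a poly(A) signal at the model's end and gray points do not. The 6 named members all have a signal and more than 100 bases after the stem-loop.

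Of the 68 members, 44 reached 10 counts in at least 1 library and are called detected. They were 5 of 6 in H1, 9 of 18 in H2A, 11 of 19 in H2B, 10 of 12 in H3 and 9 of 13 in H4. The sum over all 68 members had a lowest, median and highest value of 82.3, 91.6 and 98.9 CPM in the libraries labelled upper and of 75.6, 83.9 and 95.2 CPM in those labelled lower, so the labels overlapped. A few genes made up most of this sum. Hist3h2a, Hist1h1c, Hist3h2ba and Hist2h2be together held 70.7% of the counts, the 12 members with the highest counts held 88.9%, and the other 32 detected members had mean values from 0.101 to 0.574 CPM. By family, H2B held 39.8% of the counts, H2A 25.5%, H1 20.9%, H4 10.0% and H3 3.73%.

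Scaled by the length of the GENCODE exons, the order changed. Hist3h2ba was at 22.4 CPM per kb, Hist1h1c at 10.7, Hist3h2a at 8.81, Hist1h4i at 5.72, Hist2h2be at 5.03 and Hist1h2bc at 4.17 CPM per kb. The short Hist3h2ba model of 614 bases thus stood first per length, ahead of the 2146 bases of its neighbour Hist3h2a. These per-length values are means over the 16 libraries.

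Among the linker histones, Hist1h1c (chromosome 13, 23738808 to 23740367), which encodes the H1.2 type, was the main source of counts. Its lowest, median and highest values were 12.9, 18.3 and 21.8 CPM in labelled upper and 9.18, 14.6 and 22.7 CPM in labelled lower, where ED14.5 and ED15.5 were the lowest. Hist1h1d (chromosome 13, 23553262 to 23560686), another linker histone gene, measured 0.477, 0.643 and 0.911 CPM in labelled upper and 0.494, 0.710 and 1.14 CPM in labelled lower. The 2 labels overlapped for either gene.

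In family H2A, Hist3h2a (chromosome 11, 58954685 to 58956830) shared no stretch of 100 bases with another member. Only exact matches among genes with clustered histone symbols were searched, so other copies and stretches with mismatches were not looked for. Hist3h2a measured 16.05, 19.5 and 22.4 CPM in labelled upper and 15.2, 18.3 and 23.2 CPM in labelled lower as lowest, median and highest values, a narrow range in which the labels overlapped. Hist1h2ac (chromosome 13, 23681467 to 23683948) measured 0.705, 0.924 and 1.41 CPM in labelled upper and 0.292, 0.701 and 0.832 CPM in labelled lower. Hist1h2ae (chromosome 13, 23570517 to 23571220) measured 0.362, 0.785 and 1.29 CPM in labelled upper and 0.473, 0.692 and 1.24 CPM in labelled lower. For Hist1h2ae, 30.7% of the 100-base windows of its model occur in other H2A genes, and reads from these could be lost or assigned elsewhere.

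In family H2B, Hist3h2ba (chromosome 11, 58948920 to 58949533) measured 9.87, 15.04 and 17.1 CPM in labelled upper and 10.9, 13.5 and 14.51 CPM in labelled lower. Within labelled upper, its lowest values were those at ED17.5 and ED18.0. Hist2h2be (chromosome 3, 96221119 to 96223738), which shares no 100-base window with another member, measured 11.9, 14.01 and 17.3 CPM in labelled upper and 8.04, 12.7 and 14.48 CPM in labelled lower. In labelled upper it lay at 11.9 to 12.7 CPM at ED15.5, ED16.0, ED17.5 and ED18.0 and at 15.3 to 17.3 CPM at the other 4 stages. In labelled lower it lay at 8.57 and 8.04 CPM at ED15.5 and ED16.0 and at 11.9 CPM or more at the other 6.

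Hist1h2bc (chromosome 13, 23684199 to 23692908) measured 3.13, 4.39 and 7.53 CPM in labelled upper and 3.72, 4.69 and 6.46 CPM in labelled lower, highest at ED15.0 in both. Hist1h2be (chromosome 13, 23583670 to 23621124) measured 0.362, 0.773 and 0.979 CPM in labelled upper and 0.454, 0.769 and 1.09 CPM in labelled lower. The labels overlapped for each of these H2B genes.

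Family H3 was thinly counted, and Hist2h3c1 (chromosome 3, 96246685 to 96248509) was its largest contributor. It measured 0.588, 0.890 and 1.71 CPM in labelled upper and 0.555, 1.16 and 2.03 CPM in labelled lower, where the 4 libraries from ED16.5 on lay at 1.40 to 2.03 CPM and the 4 earlier ones at 0.555 to 0.920 CPM. Of its windows, 32.9% occur in Hist2h3b or Hist2h3c2. In family H4, Hist4h4 (chromosome 6, 136801553 to 136804415), the only member of the fourth cluster, stayed at 2.24, 2.73 and 3.09 CPM in labelled upper and 2.42, 2.76 and 4.04 CPM in labelled lower. The clustered H4 genes encode the same protein, and the H3 copies nearly so.

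**Figure D2:**
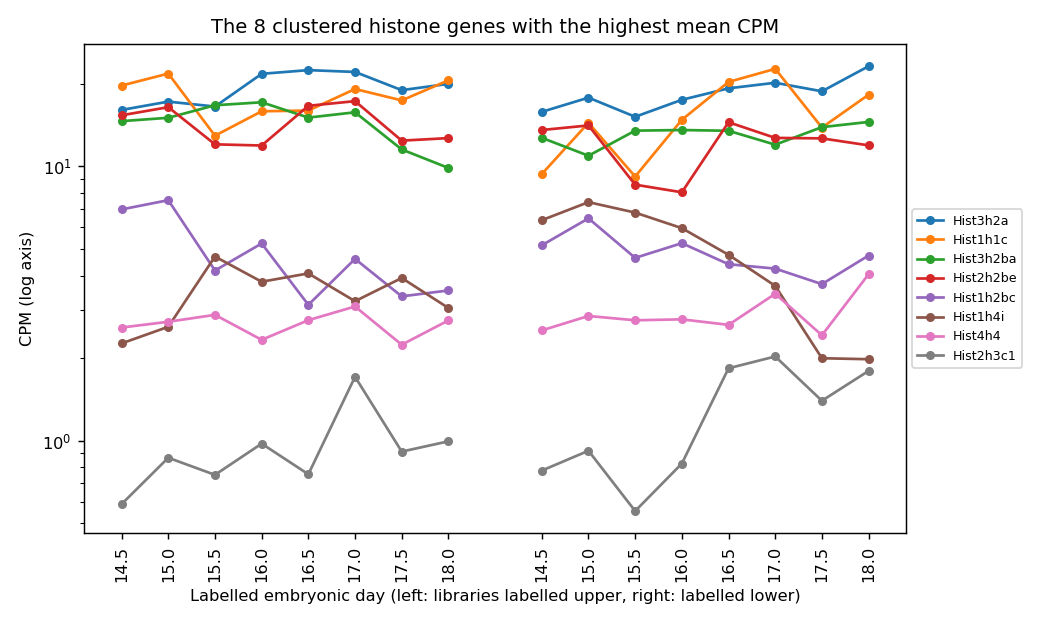
CPM (log axis) in each of the 16 libraries by labelled embryonic day for the 8 members with the highest mean CPM, with the 8 libraries labelled upper at left and the 8 labelled lower at right. Points are single libraries. Hist3h2a stays between 15.2 and 23.2 CPM, while Hist1h4i in labelled lower goes from 7.40 CPM at ED15.0 to 1.98 CPM at ED18.0.

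Counts were tested with edgeR's quasi-likelihood test over 16287 genes that passed a filter on low counts, 38 members among them, with p-values adjusted over all 16287 genes and 0.05 as the threshold. The 6 other detected members did not pass the filter. With single libraries per label and stage, a p-value rests on how far libraries scatter around the line or curve fitted to stage. Scatter between embryos cannot be told apart there from a lane step, from library preparation or from a stage course of another shape. The split of individuals by Pou3f3 and Nkx2-3 had no term in the main fits and is also part of this scatter. The main fits held no term for the embryo, so libraries that share an embryo by the labels were treated as independent. In the comparison of the tooth labels, 1 member was higher in labelled upper, where 18.1% of all genes tested were, and 0 were lower, where 18.1% of all genes were. The median log2 difference, labelled upper minus labelled lower, was -0.08 over the members and 0.01 over all genes tested. At an unadjusted p under 0.05, 3 of the 38 members differed, where 45.5% of all genes tested did. The median standard error of the log2 difference was 0.27 over the members and 0.07 over all genes tested. Smaller differences could therefore be called in most other genes than in the members, and the shares do not show that members differed less. DESeq2 called the same number of members as edgeR, 1 higher and 0 lower, where it called 18.5% of all genes higher and 19.7% lower.

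The member that passed was Hist1h2ac, whose values are given above: the libraries labelled upper at ED14.5 and ED15.0 were the highest, at 1.41 and 1.40 CPM, and the library labelled lower at ED16.0 the lowest, at 0.292 CPM. Its log2 difference was 0.63 ± 0.18 (SE, n = 8 against 8, edgeR adjusted p = 0.0148). The ranges of the labels overlapped, and it rests on a mean of 31.2 counts per library. Without the first 2 stages of labelled lower, where Xist stood apart, its difference was 0.51 with an edgeR adjusted p of 0.0735. Hist2h2be was at 0.27 ± 0.11 (edgeR adjusted p = 0.0751). With the replicate number, which stands for the embryo only by the labels, fitted as a block, Hist2h2be came to 0.27 ± 0.07 (edgeR adjusted p = 0.0154). This made 2 members higher, where 18.7% of all genes were higher in that fit.

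The largest log2 differences in the other families did not pass the threshold. They were -0.41 ± 0.28 for Hist1h1b in H1 (edgeR adjusted p = 0.273), -0.77 ± 0.31 for Hist1h2bj in H2B (0.0631), -0.64 ± 0.36 for Hist1h3f in H3 (0.178) and -0.50 ± 0.29 for Hist1h4k in H4 (0.190). Hist1h2bj had values from 0.140 to 0.354 CPM in labelled upper and from 0.150 to 0.833 CPM in labelled lower, and the others overlapped as well. None of the 44 detected members had label ranges that did not overlap, as 2.89% of all genes tested did with labelled upper higher and 3.52% with labelled upper lower.

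Several cell type markers differed between the tooth labels. Over all genes tested, 18.1% were higher and 18.1% lower in labelled upper. All 7 macrophage and osteoclast markers were lower in labelled upper, with a summed level of 227.0 to 358.6 CPM against 287.9 to 1075 CPM, and 4 of 8 erythroid markers tested were higher, with sums of 34.7 to 147.5 CPM against 15.6 to 34.3 CPM over 10 genes. None of the 7 macrophage and osteoclast markers was at 0 in a label, and 1 of the 10 erythroid markers was at 0 in all libraries labelled upper. Of the 6 dental epithelium markers 1 was higher and 3 lower, and of the 6 dental mesenchyme markers 3 were higher and 0 lower. Of the 4 endothelium markers 2 were lower and 0 higher, and of the 8 skeletal muscle markers 1 was higher and 1 lower. Sums also varied within a label. The erythroid sum went from 144.6 CPM at ED14.5 to 41.9 CPM at ED18.0 in labelled upper, and from 31.1 to 15.6 CPM in labelled lower. From ED14.5 to ED18.0 the dental mesenchyme sum in labelled lower was 1029, 1370, 843.2, 1255, 809.6, 1156, 653.9 and 987.5 CPM. The part of these markers in the difference of Hist1h2ac was not tested. In whole germs, fewer cells of a type and less RNA per cell cannot be told apart.

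Along the stages labelled upper, 2 members fell and 0 rose, where 2.41% of all genes tested fell and 3.72% rose. The slopes of 32 of the 38 members were negative, with a median of -0.24 log2 per day against 0.00 over all genes tested. Because genes of 1 library share its composition, these signs are not independent. Hist1h2ae, an H2A gene, went from 1.03, 1.29, 0.959 and 0.922 CPM at ED14.5 to ED16.0 to 0.647, 0.617, 0.619 and 0.362 CPM at ED16.5 to ED18.0. The slope was -0.42 ± 0.09 log2 per day (SE, n = 8, edgeR adjusted p = 0.0327). Hist1h3c (chromosome 13, 23744973 to 23745602), an H3 gene outside the naming rule and chosen after its values were seen, measured 0.794, 0.728, 0.881 and 0.597 CPM and then 0.324, 0.309, 0.354 and 0.151 CPM. Its slope was -0.62 ± 0.13 log2 per day (edgeR adjusted p = 0.0283), from a mean of 20.5 counts.

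In both genes every value up to ED16.0 lay above every value from ED16.5 on, and the lane changed between these stages. The largest fold drop between successive stages was that from ED17.5 to ED18.0. With lane as a term the slopes were -0.31 for Hist1h2ae and -0.30 for Hist1h3c, with edgeR adjusted p-values of 0.612 and 0.707, and 2 genes of all 16287 passed, so stage and lane are largely the same contrast in these libraries. Without the library at ED14.5, ED15.0, ED17.0 or ED18.0, 0 members passed. DESeq2, by which 5.46% of all genes tested fell, called 3 members that fell, with Hist1h2bc as the third. In labelled lower, Hist1h2ae had a slope of -0.34 ± 0.11 (edgeR adjusted p = 0.0974) and Hist1h3c of -0.39 ± 0.21 (0.320). The differences between the slopes of the 2 labels did not pass the test, at -0.07 ± 0.14 (adjusted p = 0.880) and -0.15 ± 0.23 (0.845).

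Along the stages labelled lower, 1 member fell and 0 rose, where 1.49% of all genes tested fell and 2.63% rose. The median over the members was 0.00 log2 per day, and 18 of 38 slopes were negative. DESeq2, by which 6.23% of all genes tested rose, called 3 members that rose, Hist3h2a at 0.14, Hist2h3c1 at 0.43 and Hist2h2bb at 0.80 log2 per day, which edgeR put at adjusted p-values of 0.0556, 0.0983 and 0.0743.

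Hist1h4i (chromosome 13, 22040636 to 22041362, minus strand), an H4 gene whose model runs on for 330 bases after the stem-loop to a poly(A) signal near its end, was the member that fell in labelled lower. From ED14.5 to ED18.0 it measured 6.36, 7.40, 6.78, 5.95, 4.76, 3.67, 2.00 and 1.98 CPM there, on 75 to 330 counts per library. In labelled upper the same days gave 2.26, 2.60, 4.69, 3.80, 4.07, 3.23, 3.92 and 3.05 CPM, on 77 to 181 counts. The libraries labelled lower were thus the higher ones up to ED17.0 and the lower ones at ED17.5 and ED18.0.

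The slope of Hist1h4i was -0.57 ± 0.09 log2 per day in labelled lower (SE, n = 8, edgeR adjusted p = 0.0177) and 0.09 ± 0.11 in labelled upper (adjusted p = 0.648). The slopes differed by 0.67 ± 0.09 log2 per day, labelled upper minus labelled lower (edgeR adjusted p = 0.00437, n = 16), the 1 member called in that comparison, where 0.682% of all genes tested were called in this direction and 0.602% in the other. The median slope difference was -0.22 over the members and 0.00 over all genes tested. Within labelled lower, with lane as a term, the slope was -0.49 (adjusted p = 0.288), and without the library at ED18.0 it was -0.52 (adjusted p = 0.1002). Without the first 2 stages of labelled lower it was -0.79 (adjusted p = 0.0815). With lane as a term, chosen after seeing the data, the slope difference was 0.72 with an adjusted p of 0.335, and 0 of all 16287 genes passed. Without those 2 stages the slope difference was 0.64 with an adjusted p of 0.133. Of the windows of the Hist1h4i model, 15.1% occur in other H4 genes.

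**Figure D3:**
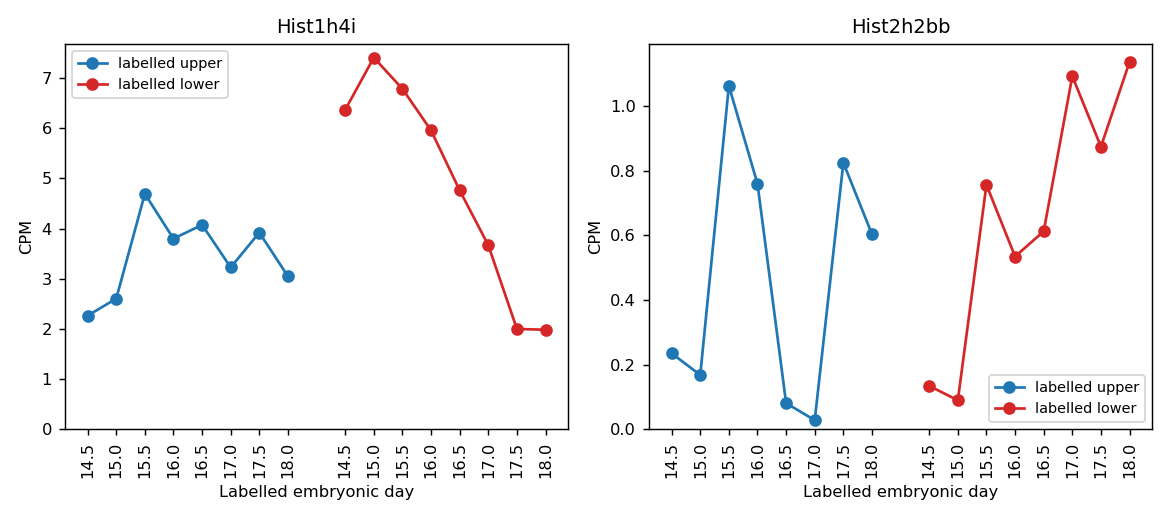
CPM of Hist1h4i (left) and Hist2h2bb (right) in each library against the labelled embryonic day, with labelled upper in blue and labelled lower in red, each drawn as its own stretch of the horizontal axis. Points are single libraries and lines join successive stages. Hist1h4i falls from 7.40 to 1.98 CPM in labelled lower between ED15.0 and ED18.0, and Hist2h2bb lies at or under 0.235 CPM in 6 libraries and at or above 0.535 CPM in 10.

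Hist2h2bb (chromosome 3, 96269752 to 96270132), an H2B gene chosen after its values were seen, varied the most unevenly. It measured 0.235, 0.168, 1.06, 0.759, 0.0809, 0.0280, 0.825 and 0.603 CPM from ED14.5 to ED18.0 in labelled upper, and 0.134, 0.0898, 0.756, 0.535, 0.612, 1.09, 0.875 and 1.14 CPM in labelled lower. In counts, 6 libraries had 1 to 8 and 10 had 20 to 43. The low libraries were those of ED14.5 and ED15.0 in both labels and of ED16.5 and ED17.0 in labelled upper, so that successive stages were low or high in pairs. The tooth difference was -0.42 ± 0.53 (edgeR adjusted p = 0.571). No 100-base window of its model occurs in another member.

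**Figure D4:**
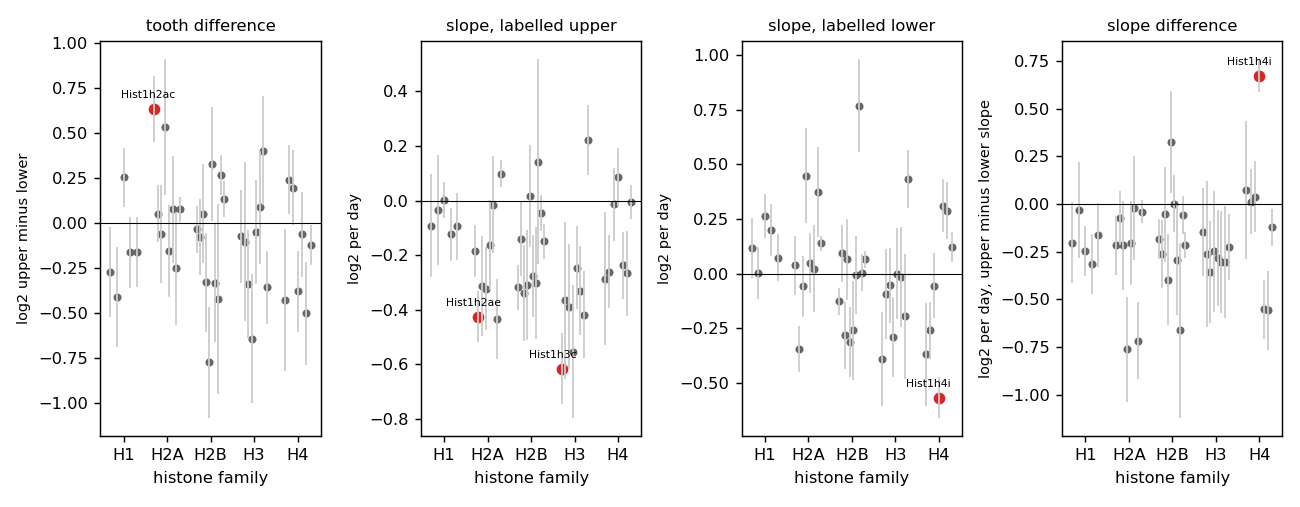
Log2 values of the 38 tested members by family in the 4 comparisons: labelled upper minus labelled lower, slope per day in labelled upper, slope per day in labelled lower, and the difference of the slopes. Points are members, bars are standard errors, and red points passed the edgeR adjusted p of 0.05. Most slopes in labelled upper lie below 0, and Hist1h4i stands at 0.67 in the slope difference.

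The promoters of the genes just described are shown for the motifs they hold. Histone promoters are known for CCAAT boxes, a TATA box and, in H2A and H2B genes, the octamer bound by Pou2f1. The word CCAAT, the TATA box word TATAAA and the octamer ATTTGCAT were searched on both strands in RefSeq windows of 250 bases before to 50 after the start (GRCm38.p6), for the 62 members with an entry. The 140 bases before the start are printed 5′ to 3′ on the gene's strand, with matches in capitals.

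Hist3h2a (chr11:58954545-58954684, plus strand): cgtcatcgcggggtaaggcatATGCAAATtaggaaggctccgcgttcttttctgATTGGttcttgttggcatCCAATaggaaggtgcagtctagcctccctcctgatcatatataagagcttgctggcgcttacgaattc
Hist1h4i (chr13:22041363-22041502, minus strand): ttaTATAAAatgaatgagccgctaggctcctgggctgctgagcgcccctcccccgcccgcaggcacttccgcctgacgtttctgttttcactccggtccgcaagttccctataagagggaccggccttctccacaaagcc
Hist2h2bb (chr3:96269560-96269699, plus strand): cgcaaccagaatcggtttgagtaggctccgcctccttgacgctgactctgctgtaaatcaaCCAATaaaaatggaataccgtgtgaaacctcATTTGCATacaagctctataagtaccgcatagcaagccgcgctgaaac

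CCAAT was found in 53 of the 62 members' windows, against 37.4% of 32851 RefSeq promoters. It was in all 6 of H1, 18 of H2A, 16 of H2B and 10 of H3, but in 3 of 12 of H4, and the Hist1h4i window held none. TATAAA was in 35 of 62 windows, against 13.6% of all promoters. ATTTGCAT was in 14 of 62, 7 of them H2A and 7 H2B genes, against 1.74% of all promoters, and Hist3h2a and Hist2h2bb both held it. These are matches of letters at any place in the window and not measured binding. In Hist1h4i the marked TATAAA stands at the far end of the printed bases, away from the gene's start.

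Genes that make, process and remove histone mRNA were compared in the same fits. Over all genes tested, 18.1% were higher and 18.1% lower in labelled upper. With stage, 3.72% rose and 2.41% fell in labelled upper, and 2.63% rose and 1.49% fell in labelled lower. The counts of each list below are to be read beside these shares. Of 22 genes of histone gene transcription and 3′-end processing, 3 were higher and 0 lower in labelled upper, 0 rose and 1 fell with stage in labelled upper, and 0 rose and 1 fell in labelled lower. Lsm10, a subunit of the U7 particle, was higher by 0.19 ± 0.04 log2 in labelled upper, with 10.7 to 12.9 CPM against 9.28 to 11.3 CPM. Slbp, the stem-loop binding protein, ranged from 77.8 to 103.1 CPM in labelled upper and from 80.1 to 95.8 CPM in labelled lower, and the ranges overlapped. Of 14 genes of histone mRNA decay, 0 were higher and 2 lower in labelled upper, led by the exonuclease gene Xrn1 at -0.44 ± 0.09 log2, and in the slopes 1 fell in labelled upper and 0 in labelled lower.

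S phase genes are active when new histones are needed. Of 29, 4 (13.8%) were higher and 3 (10.3%) lower in labelled upper, against 18.1% of all genes tested in each direction. Along the stages, 0 passed in either direction in labelled upper, and 0 rose and 4 fell in labelled lower. These were led by Ccne1, which encodes cyclin E1, at -0.17 ± 0.02 log2 per day. Without ED14.5 or with lane as a term, 0 of the 29 fell in labelled lower. Of 15 mitosis genes, 0 were higher and 4 lower in labelled upper, 5 fell and 0 rose along the stages labelled upper, and 0 passed in labelled lower. Ccnb2, which encodes cyclin B2, had the steepest of these slopes at -0.21 ± 0.03 log2 per day. Of 15 tested histone chaperone genes, 1 was higher and 1 lower in labelled upper, 2 fell and 0 rose in labelled upper, and 5 fell and 0 rose in labelled lower, among them Nasp at -0.10 ± 0.02 log2 per day.

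The replication-independent histone genes, most of which are made throughout the cycle with ordinary poly(A) tails, held far more of the counts. Their 11 genes summed to 3241 to 3988 CPM in labelled upper and 3292 to 3897 CPM in labelled lower, against 75.6 to 98.9 CPM for all 68 clustered members, which compares shares of poly(A) counts and not gene levels per length. Of the 11, 2 were higher and 1 lower in labelled upper, 4 fell and 0 rose in labelled upper, and 1 fell and 0 rose in labelled lower. H2afx, the variant that is phosphorylated at DNA breaks, ran from 244.8 to 147.1 CPM in labelled upper and had a slope of -0.19 ± 0.03 log2 per day. Whether all H2afx mRNA has a poly(A) tail and is made throughout the cycle was not tested. In the slope difference, 0 genes of these 6 lists passed. The falls with stage depended on the setting and on single libraries. Over the 6 lists, 13 genes fell in labelled upper and 11 in labelled lower. With lane as a term 0 fell in either, and with DESeq2 25 and 28 fell. In labelled upper 0 fell without ED18.0, 1 without ED14.5 and 37 without ED17.5. In labelled lower 0 fell without ED14.5, 0 without its first 2 stages, 1 without ED17.5 or ED18.0 and 14 without ED16.5. Calls over all genes tested, in either direction, moved too. They went from 999 to 192 without ED18.0 in labelled upper and from 670 to 34 without ED14.5 in labelled lower.

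Of 19 listed RNAs that lack a poly(A) tail, 13 were among the genes counted. Their level does not measure how much untailed histone mRNA passed the selection, which was not tested. The 13 such RNAs in the tables summed to 1.06 to 1.93 CPM in labelled upper and 1.08 to 2.34 CPM in labelled lower, 2 of them were at 0 in every library, and 0 of the 3 that passed the filter were called in any comparison. In a low count of a histone member, tailed transcripts and carried-over untailed ones cannot be told apart here.

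The 24 members not detected held 1.26% of the counts of the family, and their mean values did not exceed 0.125 CPM. Of these, 19 had some counts. The other 5, Hist1h2ao, Hist1h2ap, Hist1h2bq, Hist1h2br and Hist2h2aa2, were listed at 0 in all 16 libraries, which allows a level of up to 0.00500 CPM over the 16 libraries together, taking 3 counts as the limit and counting error only. Between 85.8% and 100% of the 100-base windows of these 5 models occur in other members. More than 50% of windows were shared in 12 of the 24 undetected members and in 12 of the 44 detected ones. Reads from such windows match several places, so a value of 0 does not show that the gene was silent.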

How the data were processed

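For each of the 16 libraries, the authors deposited a list of gene symbols with raw counts (TruSeq V2 poly(A) libraries and 100 bp read pairs, per the labels; this kit does not mark strand). HTSeq 0.5.3p9, TopHat2 2.0.6 and Bowtie2 2.0.2 are named for mm10 in the submitters' processing notes. No annotation is named there. The 5 summary lines were left out of library sizes. They put 11.8% to 14.1% of all counts on no feature, 0.896% to 1.07% on several genes and 6.07% to 6.67% on reads aligned more than once.

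Genes with at least 0.269 CPM (10 counts at the median depth) in 2 libraries went into edgeR 4.0.16 under R 4.3.3 (TMM, quasi-likelihood F test, Benjamini-Hochberg adjustment over all genes kept). A standard error is the absolute log2 value over the root of the F statistic. The tooth difference and slope difference used a natural spline of stage with 3 degrees of freedom, and slopes were linear. DESeq2 1.42.0 and other settings were alternatives. The labels pair both teeth of an embryo. Deviations of same-numbered libraries from the stage line correlated at 0.0740 to 0.302 over genes, and 3 of 8 matched their own number best.

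Members and lists were chosen with earlier results of these data known. Named members were the 12 with the highest mean CPM, up to 5 called members per direction and comparison with a mean count of at least 50, and the largest tooth difference of each family.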

Additional observations from a re-analysis of the deposited data

Results flagged for a closer look

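The slope of Hist1h4i per day differed between the labels by 0.67 log2, labelled upper minus labelled lower, by the test of the difference itself (edgeR adjusted p = 0.00437). In 36 groups of 8 libraries, 18 members in each label, a library was looked for that stood apart from the others of its label by more than the critical value of Dixon's test, which chance gives in about 1 in 20 groups. Hist2h3c1 stood apart at ED17.0 in labelled upper, with 1.71 CPM. Hist1h2ac stood apart at ED16.0 in labelled lower, with 0.292 CPM. Hist1h3f stood apart at ED14.5 in labelled upper, with 0.382 CPM. Without that last library, the tooth difference of Hist1h3f was -0.999 log2 with an edgeR adjusted p of 0.0352. The library left out was the highest of the label with the lower values, so leaving it out had to widen the difference. This p-value is therefore no support for a difference, and the gene had a mean of 6.56 counts per library.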

How the results depend on the processing

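No called member changed sign under any alternative run. For the tooth difference, members called higher were 2 with the replicate block (Hist1h2ac and Hist2h2be), 0 without the first 2 stages of labelled lower (added after seeing the data) and 1 to 2 when 1 library was left out, where members called lower were 0 to 1 (Hist1h2bj or Hist1h3f). For the slope in labelled upper, members that fell were 0 with lane as a term, 0 to 2 with 1 library left out, and 3 with DESeq2 or with no filter. For the slope in labelled lower, members that fell were 0 with lane as a term, 0 without its first 2 stages and 0 to 1 with 1 library left out, and members that rose were 3 with DESeq2 and 0 to 1 (Hist2h2bb, without ED15.5) with 1 library left out. For the slope difference, the call of Hist1h4i held with the replicate block (0.67, adjusted p = 0.0106), in the other planned settings and with each library left out (0.63 to 0.72), while 0 members were called with lane as a term or without the first 2 stages of labelled lower. The cause of these changes was not tested. The counts of members with RLE size factors and library totals were those of TMM. Only 7 members had a mean of 50 counts or more, so counting error limits what could be detected in the others.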
